A study of Mus musculus with 6 samples.

Results

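The insulin-like growth factor (IGF) axis in 3T3-L1 adipocytes is described here through 10 genes, taken by name from the 24421 gene symbols of the count tables: the ligands *Igf1* and *Igf2*, the receptors *Igf1r* and *Igf2r*, and the binding proteins *Igfbp2* to *Igfbp7*. 3T3-L1 is a mouse fibroblast line that turns into lipid-storing adipocytes under hormone treatment. The labels give its strain as C57BL/6. The study names C57BL/6J for its mice and states no strain for the line, so this label was not checked and may not hold for it. All cultures were differentiated in 10% CS with 870 nM insulin, 5 µM TZD, 1 µM Dex and 500 µM IBMX, with Dex and IBMX left out from day 3, and were infected on day 7 with adenovirus at 100 pfu/cell. The control group received a virus carrying LacZ (AdLacZ, n = 3), and the other group a virus carrying a codon-optimized murine *Lmo3*, a LIM-domain adaptor protein (Ad*Lmo3*, n = 3). RNA was taken 3 days after infection, so every library comes from infected cells of a single line and no uninfected cells are compared here.

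The IGFs are peptide hormones related to insulin. Both bind IGF1R, a tyrosine kinase receptor close in structure to the insulin receptor, whereas IGF2R takes up IGF2 for breakdown in lysosomes and also carries lysosomal enzymes. Secreted binding proteins hold most of the IGF outside cells, lengthening its life in the circulation and limiting its access to the receptor until proteases cut them, and adipose tissue is among the sources of IGF1 outside the liver.

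The libraries held between 28035639 and 38332335 reads counted in genes, so that 3 counts, taken as the detection floor, correspond to 0.0768 to 0.111 CPM, the unit of the levels given here (read counts divided by sequencing depth, after TMM scaling between libraries). *Lmo3* itself had 0 counts in all 6 libraries, and since the virus carries a recoded sequence, these counts cannot check the group labels. The adipocyte label was checked on 10 markers. Their summed level ran from 18211 to 20352 CPM over the AdLacZ libraries and from 24483 to 30073 CPM over the Ad*Lmo3* libraries, and the estimate was higher in Ad*Lmo3* for 10 of the 10. In edgeR's quasi-likelihood test 7 of the 10 passed at an adjusted p under 0.05, all higher, beside 2.71% of all tested genes. The 10 preadipocyte and fibroblast markers were also abundant, at 18420 to 22232 CPM for AdLacZ and 17406 to 25390 CPM in Ad*Lmo3*. Of these, 0 of the 10 passed the same test, beside 4.28% of all tested genes, and 0 had an unadjusted p under 0.05 (20.6%). DESeq2 called 0 (8.69% of all tested genes) and limma voom 0 (4.4%). With 10 genes, such counts do not show that these markers were unchanged. In cultures measured in bulk, a different share of adipocytes and a different amount of RNA per adipocyte cannot be told apart. The interferon response genes differed widely within Ad*Lmo3*. Their 8 members summed to 2889 CPM in Ad*Lmo3* replicate 3 and to 549 CPM in replicate 1, above and below the 1036 to 1405 CPM of AdLacZ. Ad*Lmo3* replicate 2 was at 1222 CPM.

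Of the 10 IGF genes, 9 had enough counts to be tested and 2 of these differed between the groups. *Igf1* was higher in Ad*Lmo3* than in AdLacZ, by 1.45-fold (95% interval 1.24 to 1.70), and *Igfbp3*, which encodes the main IGF carrier of serum, by 1.47-fold (1.23 to 1.75). None of the 9 was called lower. *Igf2*, both receptors, *Igfbp4*, *Igfbp5*, *Igfbp6* and *Igfbp7* did not pass the test, and *Igfbp2* was at or under 3 counts in every library. A gene was called at a Benjamini-Hochberg adjusted p under 0.05 in edgeR's quasi-likelihood test over all 12766 genes tested. That rule called 4.28% of all tested genes (2.71% higher and 1.57% lower in Ad*Lmo3*), beside 2 of 9 IGF genes, both higher. At an unadjusted p under 0.05, 3 of the 9 would pass, beside 20.6% of all tested genes. The estimates were above 0 for 7 of the 9 and below 0 for 2, beside 6433 above and 6333 below 0 among all 12766 tested genes. Their median log2 fold change was 0.17, against 0.0013 over all tested genes.

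The 5′ flank of *Igfbp3*, which rose, is set beside that of *Igfbp4*, the most abundant binding protein mRNA per length, which was not called. Each is the 250 bases upstream of the RefSeq start site in the GRCm38.p6 build, read 5′ to 3′ on the strand of the gene, and all 10 genes had such an entry. *Igfbp3* is on the minus strand (window chr11:7213924-7214173) and *Igfbp4* on the plus strand (chr11:99040994-99041243) of the same chromosome. Neither window overlaps an annotated exon. Capitals mark the letters TATAAA of a classical core promoter box, the letters CCAAT of the box named after them, and any E-box, spelled CANNTG, each searched on both strands.

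Igfbp3: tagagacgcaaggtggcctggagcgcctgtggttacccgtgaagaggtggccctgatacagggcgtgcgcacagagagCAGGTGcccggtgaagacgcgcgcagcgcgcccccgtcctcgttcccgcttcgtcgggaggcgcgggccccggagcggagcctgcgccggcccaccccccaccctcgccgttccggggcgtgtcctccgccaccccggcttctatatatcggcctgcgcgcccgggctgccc
Igfbp4: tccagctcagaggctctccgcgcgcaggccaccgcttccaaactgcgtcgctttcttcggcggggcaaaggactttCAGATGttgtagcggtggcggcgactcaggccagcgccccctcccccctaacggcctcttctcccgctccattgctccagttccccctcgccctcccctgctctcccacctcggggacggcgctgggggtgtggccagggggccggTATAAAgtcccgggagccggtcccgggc

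The *Igfbp3* flank was 73.2% G and C and held 1 E-box, and none of the other boxes marked. Only the exact letters TATAAA were searched, so the stretch tatatat near the end of the *Igfbp3* flank is not marked. The *Igfbp4* flank was 69.2% G and C and held 1 match to TATAAA and 1 E-box. Over 32851 windows of the same length, the median G and C content was 52.4%, and 12.4% held the letters TATAAA, 33.8% a CCAAT box and 66.2% an E-box. These letter matches describe the sequence and were not tied to any binding data. The corresponding window of *Igf1* lies wholly within exons of its longer annotated transcripts, whose start is 2846 bases upstream of the RefSeq start, and is not shown.

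Among the ligands, *Igf1* (chr10:87858265-87937042, plus strand, GRCm38), the growth hormone-responsive ligand, was measured at 95.9, 76.8 and 76.3 CPM in AdLacZ replicates 1 to 3 and at 128, 114 and 118 CPM in Ad*Lmo3* replicates 1 to 3. All Ad*Lmo3* libraries lay above all AdLacZ libraries. The gap between the lowest Ad*Lmo3* and the highest AdLacZ library was wider than the spread among the Ad*Lmo3* libraries but narrower than that among the AdLacZ libraries. The group means of 83.0 ± 11.2 and 120 ± 7.29 CPM (SD, n = 3) gave a log2 difference of 0.54 (SE 0.101, edgeR adjusted p = 0.0265).

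*Igf2* (chr7:142650766-142666816, minus strand), the imprinted ligand that is prominent in fetal growth, was measured at 346, 440 and 242 CPM in the AdLacZ libraries and at 385, 419 and 292 CPM in Ad*Lmo3*. The groups overlapped, and replicate 3 was the lowest in each. The log2 fold change was 0.09 (95% interval -0.40 to 0.58, edgeR adjusted p = 0.856), an interval that leaves room for a change of the size seen for *Igf1*. The annotated exons of *Igf2* overlap those of *Gm49394* on the same strand over 62.8% of their length. That symbol is not among those counted, and its effect on the *Igf2* counts was not tested.

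Levels can be compared between genes after division by exon length, as CPM per kb of exon. On that scale *Igf2* was the more abundant ligand mRNA in every library, at 59.9 ± 17.3 CPM per kb in AdLacZ against 8.38 ± 1.13 for *Igf1*. The ratio of *Igf2* to *Igf1* was 5.49 to 9.91 in AdLacZ and 4.27 to 6.35 in Ad*Lmo3*, and these ranges overlapped. The summed ligand mRNA was 68.3 ± 17.4 CPM per kb in AdLacZ and 76.0 ± 11.5 in Ad*Lmo3*.

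**Figure D1:**
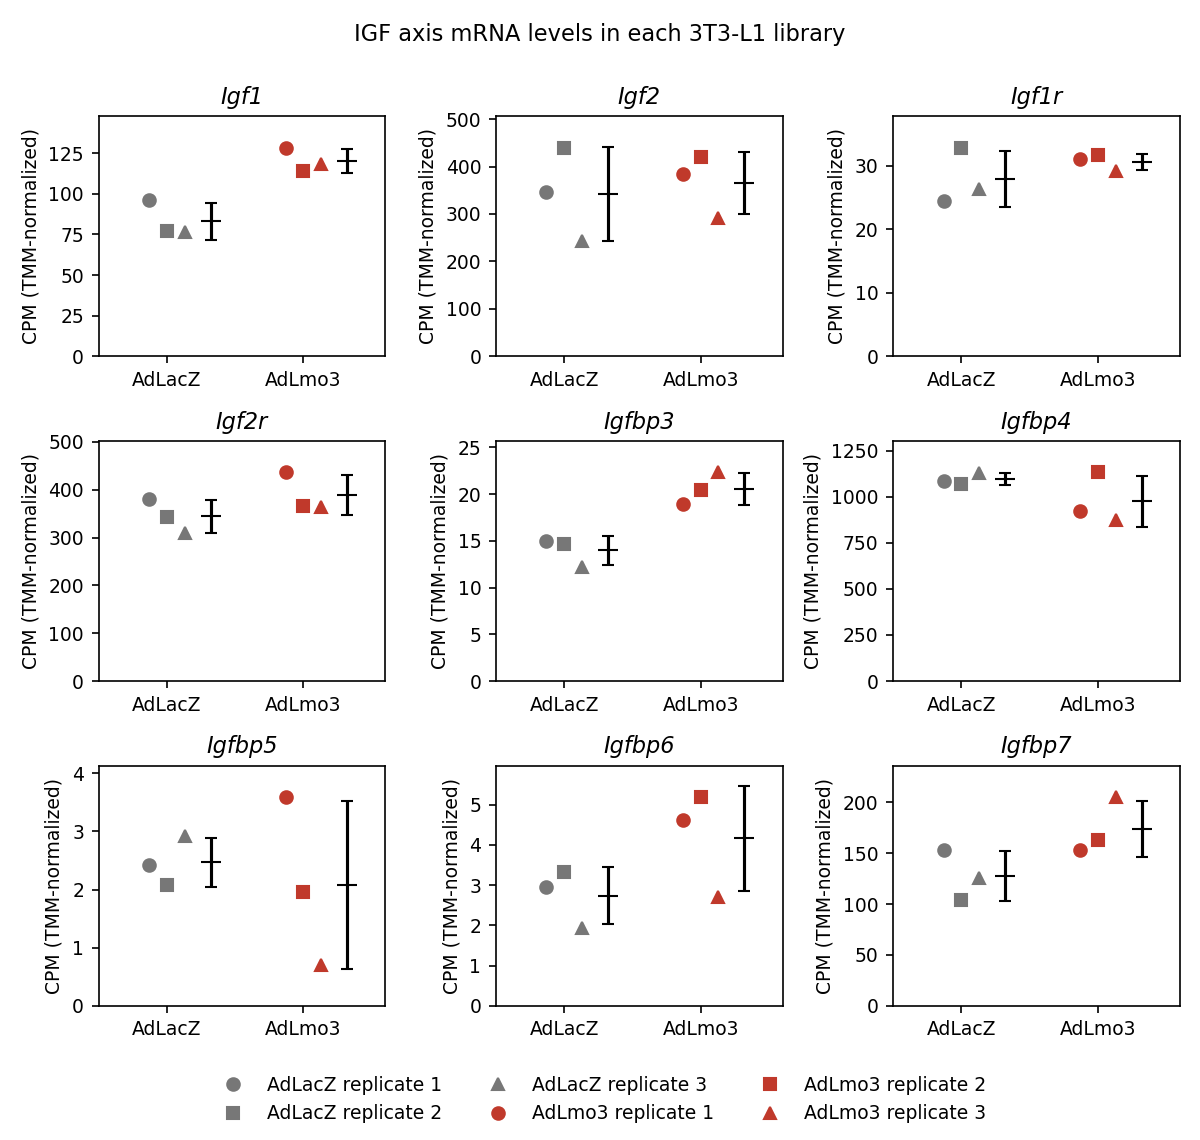
TMM-normalized CPM (vertical axis, from 0) of the 9 tested IGF genes in each of the 6 libraries, with grey symbols for AdLacZ, red for Ad*Lmo3*, and shapes for replicates 1 to 3. The black bars give mean ± SD over 3 libraries. The groups did not overlap for *Igf1* (76.3 to 95.9 against 114 to 128 CPM), *Igfbp3* and, by a narrow margin, *Igfbp7*.

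Neither receptor passed the test. *Igf1r* (chr7:67952827-68233668, plus strand), the signalling receptor, was measured at 24.5, 32.9 and 26.3 CPM in the AdLacZ libraries and at 31.1, 31.6 and 29.2 CPM in Ad*Lmo3*. The Ad*Lmo3* libraries lay within the range of the AdLacZ libraries, with a log2 fold change of 0.14 (95% interval -0.12 to 0.39, edgeR adjusted p = 0.551). *Igf2r* (chr17:12682406-12769664, minus strand), the clearance receptor for IGF2, was measured at 380, 343 and 310 CPM in the AdLacZ libraries and at 436, 366 and 363 CPM in Ad*Lmo3*. The ranges overlapped through AdLacZ replicate 1, and the log2 fold change was 0.17 (-0.07 to 0.41, adjusted p = 0.399). Both intervals leave out a log2 change as large as the estimate for *Igf1*. Per kb of exon, *Igf2r* mRNA exceeded *Igf1r* mRNA 18.9- to 28.0-fold in AdLacZ and 20.9- to 25.3-fold in Ad*Lmo3*, so the balance of the receptors overlapped between the groups.

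Among the binding proteins, *Igfbp3* (chr11:7206086-7213923, minus strand) was measured at 15.0, 14.7 and 12.2 CPM in the AdLacZ libraries and at 18.9, 20.4 and 22.3 CPM in Ad*Lmo3*. The groups did not overlap. The means were 14.0 ± 1.53 and 20.5 ± 1.72 CPM, a log2 fold change of 0.55 (SE 0.109, edgeR adjusted p = 0.0316). *Igfbp3* lies tail to tail with *Igfbp1*, another binding protein gene, with 3539 bases between them, and *Igfbp1* had 0 counts in all 6 libraries.

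*Igfbp4* (chr11:99041244-99054392, plus strand), a binding protein known mainly as an inhibitor of IGF action and a substrate of the protease PAPP-A, was measured at 1084, 1069 and 1130 CPM in the AdLacZ libraries and at 921, 1131 and 871 CPM in Ad*Lmo3*. Ad*Lmo3* replicate 2 lay just above all AdLacZ libraries and the other Ad*Lmo3* libraries lay below them. The log2 fold change was -0.17 (95% interval -0.41 to 0.07, edgeR adjusted p = 0.420).

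*Igfbp7* (chr5:77349240-77408041, minus strand), a relative with low affinity for IGFs, was measured at 153, 104 and 126 CPM in the AdLacZ libraries and at 153, 163 and 205 CPM in Ad*Lmo3*. The groups just failed to overlap, since AdLacZ replicate 1 and Ad*Lmo3* replicate 1 differed only in the second decimal, at 153.18 and 153.24 CPM. The log2 fold change of 0.44 (95% interval 0.09 to 0.80) had an unadjusted p of 0.0210 and did not pass after adjustment (edgeR adjusted p = 0.157), but passed with DESeq2 (adjusted p = 0.0319). Its exons overlap those of *Polr2b* on the opposite strand over 7.03% of their length, and without a known strand setting reads there cannot be told apart. The groups did not overlap for 3 of the 9 tested IGF genes (*Igf1*, *Igfbp3* and *Igfbp7*), against 26.5% of all tested genes.

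The other binding proteins were at low counts. *Igfbp6* (chr15:102144362-102149511, plus strand), which prefers IGF2, was measured at 2.95, 3.33 and 1.95 CPM in the AdLacZ libraries and at 4.61, 5.19 and 2.70 CPM in Ad*Lmo3*. As for *Igf2*, replicate 3 was the lowest in both groups, and the log2 fold change of 0.61, of a size with those of *Igf1* and *Igfbp3*, had a wide interval (-0.04 to 1.26, edgeR adjusted p = 0.272). *Igfbp5* (chr1:72857932-72874884, minus strand), which binds extracellular matrix, was measured at 2.42, 2.07 and 2.92 CPM in the AdLacZ libraries and at 3.59, 1.95 and 0.703 CPM in Ad*Lmo3*. Its Ad*Lmo3* libraries included both the highest and the lowest value, with 133 and 19 counts, and the log2 fold change was -0.21 (-1.27 to 0.84, adjusted p = 0.843). *Igfbp2* (chr1:72824503-72852474, plus strand), which is 5457 bases from *Igfbp5* and binds both IGFs, had 0, 3 and 0 counts in AdLacZ and 0, 0 and 2 in Ad*Lmo3*, and no fold is given.

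Ordered by mean CPM per kb of exon in AdLacZ, *Igfbp4* was highest (248), followed by *Igfbp7* (106), *Igf2* (59.9), *Igf2r* (37.0), *Igf1* (8.38), *Igfbp3* (4.46), *Igfbp6* (2.46), *Igf1r* (1.66), *Igfbp5* (0.411) and *Igfbp2* (0.0139). The order was the same in Ad*Lmo3*. Neighbours in it did not overlap in range in either group, except *Igfbp6* and *Igf1r* in AdLacZ. This scale divides by all annotated exon bases, so a gene whose cells use only short transcripts is placed too low.

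**Figure D2:**
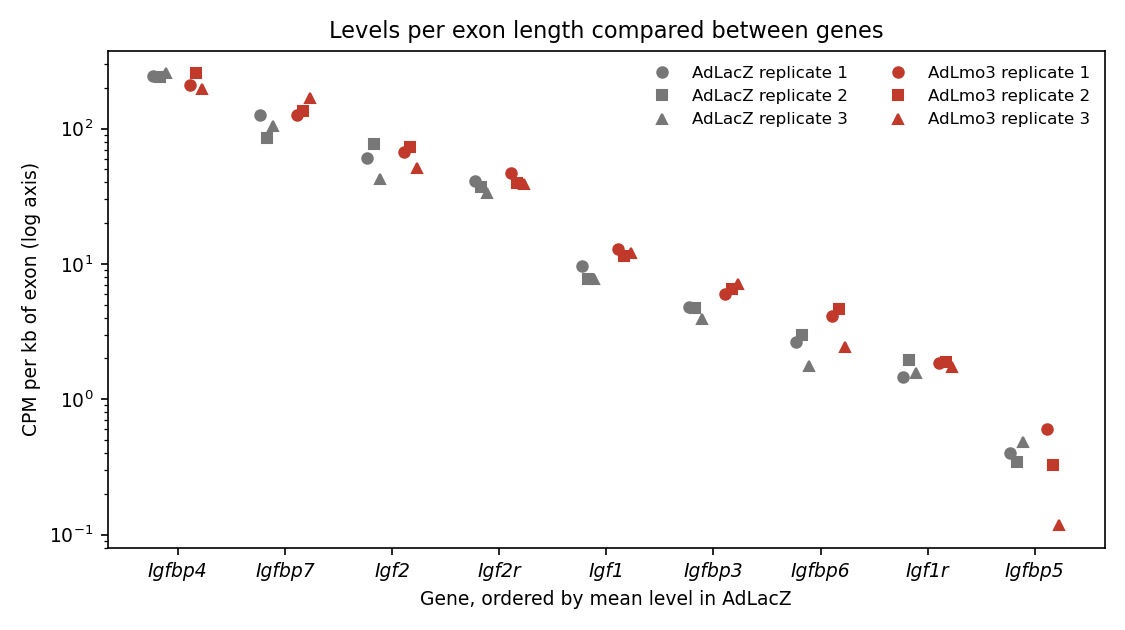
CPM per kb of exon on a log axis for the 9 tested IGF genes, ordered by their mean in AdLacZ, with 1 point per library (grey, AdLacZ, red, Ad*Lmo3*, shapes for replicates). *Igfbp4* led in both groups (means 248 and 221) and *Igfbp5* was lowest, with its Ad*Lmo3* points spread from 0.117 to 0.598.

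By the same scale *Igfbp4* and *Igfbp7* made up nearly all binding protein mRNA. *Igfbp4* held 64.6 to 72.0% of it in AdLacZ and 52.4 to 63.6% in Ad*Lmo3*, and *Igfbp7* held 25.6 to 33.3% and 33.5 to 45.0%. *Igfbp3* held 1.07 to 1.40% in AdLacZ and 1.62 to 1.89% in Ad*Lmo3*, so that the ranges of these 3 shares did not overlap between the groups, those of *Igfbp4* and *Igfbp7* by a narrow margin. The shares sum to a whole and are not independent of each other, and with 3 libraries a group an exact two-sided permutation test of such a share could not go below p = 0.1, so none was run. *Igfbp6* held 0.478 to 0.890% and 0.645 to 1.20%, which overlapped. The summed binding protein mRNA was 361 ± 22.4 CPM per kb in AdLacZ and 375 ± 28.3 in Ad*Lmo3*, a difference within the spread of each group. Set against the ligands, it was 3.97 to 7.33 times their summed level in AdLacZ and 4.31 to 5.98 times in Ad*Lmo3*. This ratio is one of mRNA and includes *Igfbp7*, with its low affinity for IGFs, so it does not measure binding capacity. Most of the ligand sum was *Igf2*, which carries the exon overlap given above.

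**Figure D3:**
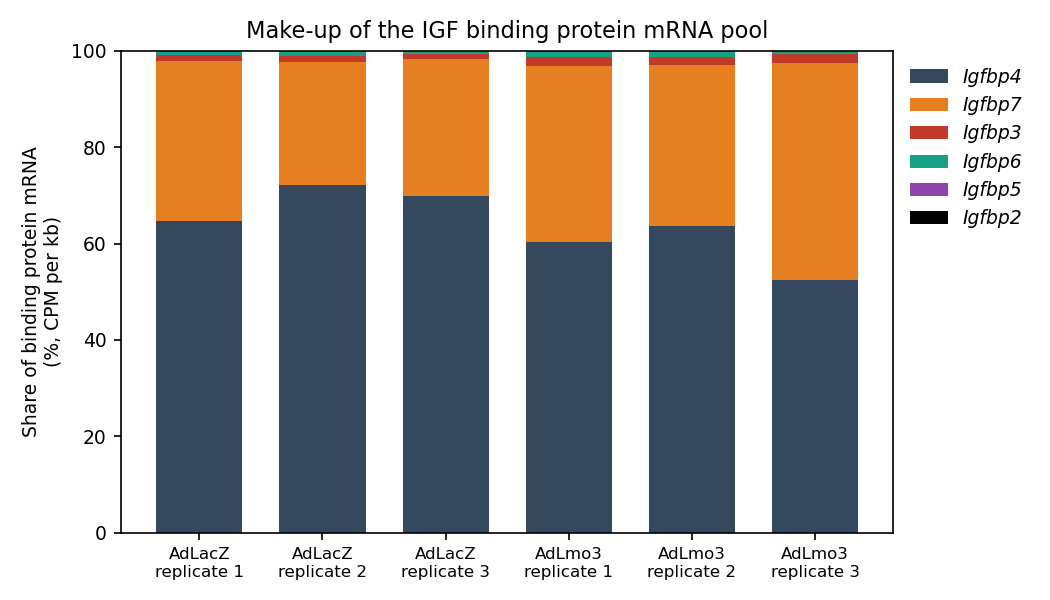
Stacked bars of the share (%) of each binding protein in the summed binding protein mRNA (CPM per kb of exon), 1 bar per library. *Igfbp4* ran from 52.4 to 63.6% in Ad*Lmo3* against 64.6 to 72.0% in AdLacZ, and *Igfbp7* filled most of the rest.

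The rest of the pathway was described through 40 further genes in 5 lists, of which 35 were tested. 2 were higher and 1 was lower in Ad*Lmo3* (3 of 35, beside 4.28% of all tested genes). At an unadjusted p under 0.05, 13 of the 35 would pass, beside 20.6% of all tested genes. DESeq2 called 8 of the 35, beside 8.69% of all tested genes, and limma voom called 3, beside 4.4%.

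Among the partners and proteases of the binding proteins, 5 of 8 genes were tested, with 1 higher (2.71% of all tested genes) and 1 lower (1.57%). At an unadjusted p under 0.05, 2 would pass (20.6% of all tested genes). DESeq2 called 2 (8.69%) and limma voom 1 (4.4%). *Igfals*, which encodes the acid-labile subunit that joins IGF and IGFBP3 into the large complex of serum, was measured at 4.07, 3.58 and 3.10 CPM in the AdLacZ libraries and at 7.69, 8.80 and 8.77 CPM in Ad*Lmo3*. Every Ad*Lmo3* library was well above every AdLacZ library, with a log2 fold change of 1.23 (SE 0.143, edgeR adjusted p = 0.00468). *Htra1*, a secreted serine protease that can cut binding proteins, was measured at 2.16, 2.00 and 2.77 CPM in the AdLacZ libraries and at 0.972, 1.33 and 1.07 CPM in Ad*Lmo3*. Its groups did not overlap, but each library held fewer than 100 counts of it, and the log2 fold change was -1.03 (SE 0.226, adjusted p = 0.0447). *Pappa*, the protease of IGFBP4, had a log2 fold change of -0.27 (adjusted p = 0.263), and *Stc1*, an inhibitor of that protease, one of 0.35 (adjusted p = 0.509). *Igfbp1* and *Igfbpl1* had 0 counts in all libraries.

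The growth hormone input held 8 genes, all tested, with 1 higher (2.71% of all tested genes) and 0 lower (1.57%). At an unadjusted p under 0.05, 3 would pass (20.6% of all tested genes). DESeq2 called 2 (8.69%) and limma voom 1 (4.4%). *Ghr*, the growth hormone receptor upstream of *Igf1* expression, was measured at 655, 536 and 656 CPM in the AdLacZ libraries and at 806, 860 and 1009 CPM in Ad*Lmo3*. The groups did not overlap, and the log2 fold change was 0.53 (SE 0.114, edgeR adjusted p = 0.0417). *Jak2*, the kinase bound to that receptor, had a log2 fold change of -0.12 (adjusted p = 0.548), and *Stat5a*, the transcription factor it activates, one of 0.15 (adjusted p = 0.423).

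Of the receptor adaptors and the insulin receptor, 8 of 10 were tested and 0 were called by edgeR (4.28% of all tested genes). At an unadjusted p under 0.05, 3 would pass (20.6% of all tested genes). DESeq2 called 2 (8.69%) and limma voom 0 (4.4%). *Insr*, the insulin receptor, was at 182 ± 11.4 in AdLacZ and 222 ± 30.2 CPM in Ad*Lmo3*, a log2 fold change of 0.28 (edgeR adjusted p = 0.168). *Irs1*, an insulin receptor substrate that relays signals of the insulin and IGF1 receptors, was at 113 ± 11.2 and 166 ± 34.1 CPM in AdLacZ and Ad*Lmo3*, a log2 fold change of 0.56 (adjusted p = 0.0728). *Irs2*, its relative, which was chosen after its values were seen, had a log2 fold change of 0.50 (adjusted p = 0.0834).

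Of 7 genes of the *Igf2* locus and of IGF2 mRNA binding, 0 were called by edgeR (4.28% of all tested genes). At an unadjusted p under 0.05, 1 would pass (20.6% of all tested genes). DESeq2 called 1 (8.69%) and limma voom 0 (4.4%). The mRNA-binding proteins *Igf2bp2* and *Igf2bp3* had log2 fold changes of 0.04 and 0.02 (edgeR adjusted p = 0.890 and 0.908). Of 7 genes of IGF processing and downstream signalling, 0 were called by edgeR (4.28% of all tested genes), with 4 at an unadjusted p under 0.05 (20.6%). DESeq2 (8.69%) and limma voom (4.4%) each called 1. *Akt2*, the AKT kinase most tied to glucose uptake, was at 221 ± 14.6 in AdLacZ and 278 ± 12.9 CPM in Ad*Lmo3*, a log2 fold change of 0.33 (edgeR adjusted p = 0.0509). *Akt1*, its relative, had a log2 fold change of -0.08 (adjusted p = 0.674).

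**Figure D4:**
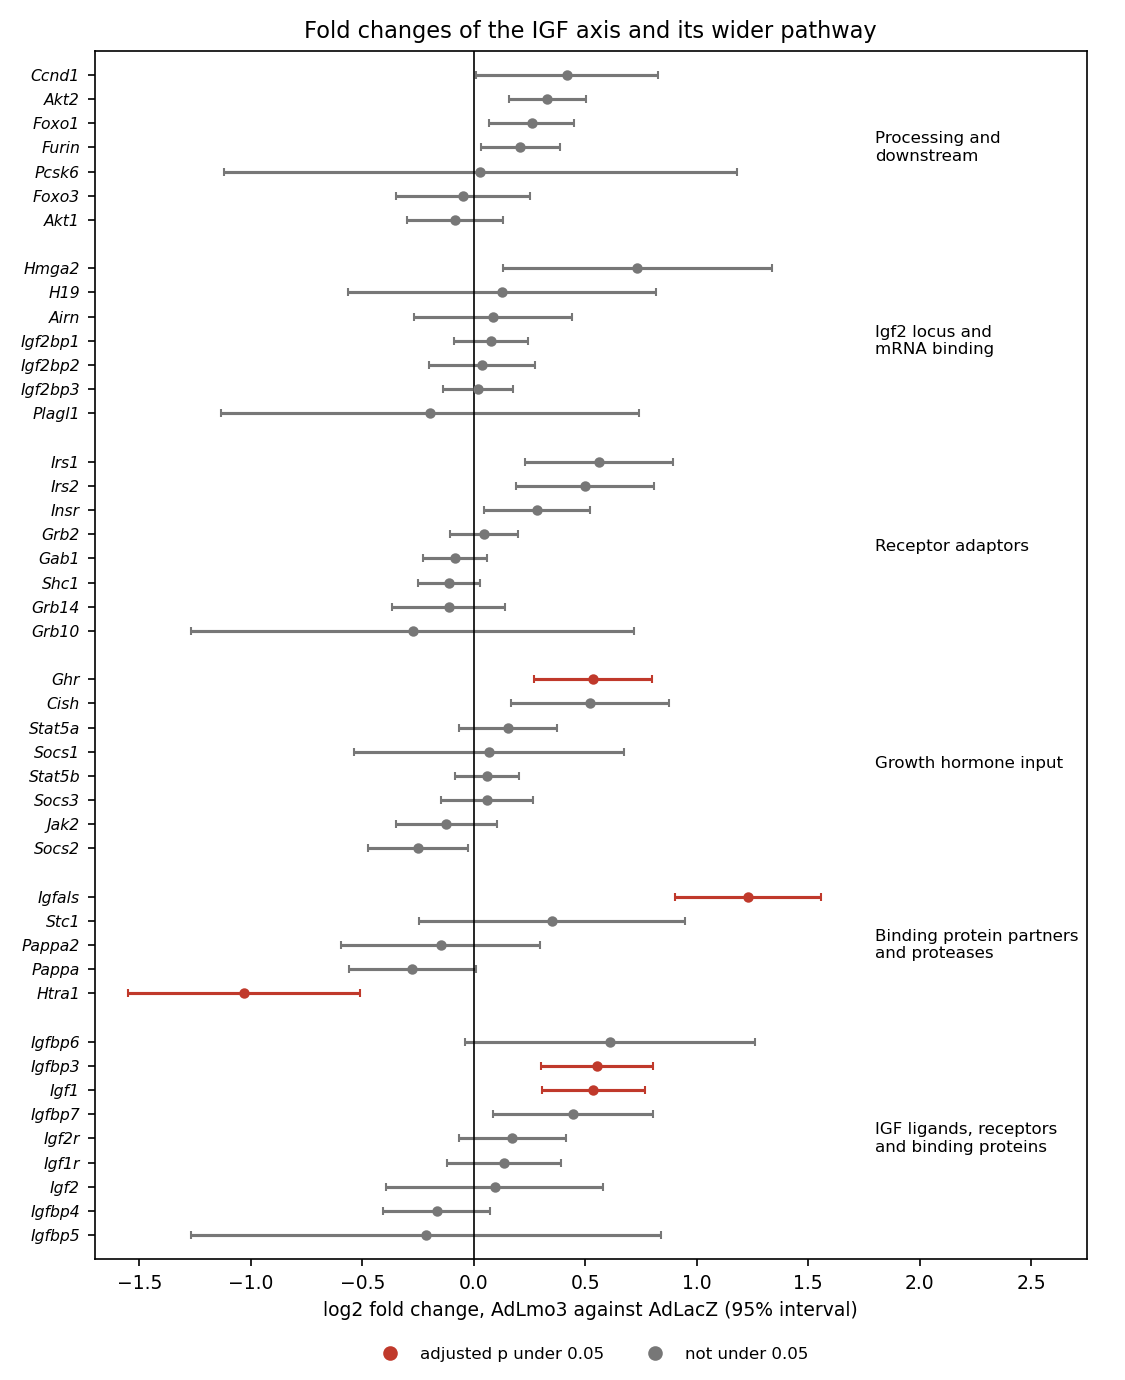
Log2 fold change, Ad*Lmo3* against AdLacZ, of the 9 tested IGF genes and 35 tested genes of the wider pathway, with 95% intervals from the edgeR fit. Red points have an adjusted p under 0.05: *Igf1* (0.54), *Igfbp3* (0.55), *Igfals* (1.23) and *Ghr* (0.53) above 0, and *Htra1* (-1.03) below it.

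The calls of *Igf1* and *Igfbp3* were lost in most fits that left out 1 library, whereas their direction was kept. Leaving out each library in turn kept the log2 fold change of *Igf1* between 0.48 and 0.65 but its adjusted p was under 0.05 in 1 of 6 such fits, without AdLacZ replicate 1 (0.0136), and reached 0.127 without AdLacZ replicate 3. For *Igfbp3* the log2 fold change stayed between 0.47 and 0.62 and the call held in 1 of 6 fits, without Ad*Lmo3* replicate 1 (adjusted p = 0.0325). Without Ad*Lmo3* replicate 3, the library with the high interferon response genes, the log2 fold changes were 0.55 for *Igf1* (adjusted p = 0.0529) and 0.49 for *Igfbp3* (adjusted p = 0.0835). *Igfals* was called in all 6 fits, between 1.14 and 1.33, *Ghr* in 1 and *Htra1* in 0. Over all genes, the number called fell from 547 to 77 without AdLacZ replicate 3 and to 152 without Ad*Lmo3* replicate 2. Fits with 5 libraries have fewer samples, and whether that or the library left out moved the calls was not tested.

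**Figure D5:**
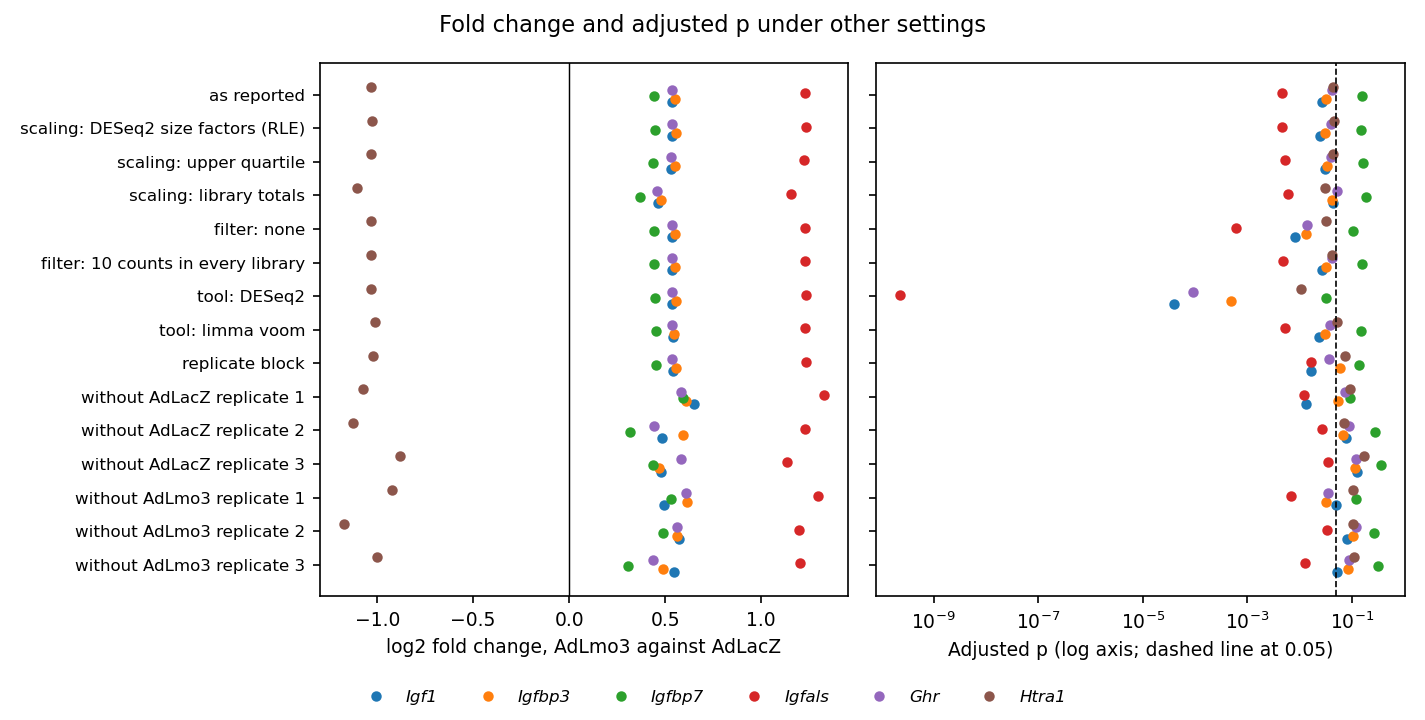
Log2 fold change (left) and adjusted p (right, log axis, dashed line at 0.05) of *Igf1*, *Igfbp3*, *Igfbp7*, *Igfals*, *Ghr* and *Htra1* as reported and under 14 other settings. The log2 fold changes kept their sign, ranging for *Igf1* from 0.46 to 0.65 and for *Igfbp7* from 0.31 to 0.60, while the adjusted p crossed the line for each gene shown except *Igfals*.

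Markers of adipocytes moved with the groups, and their part in the higher *Igf1*, *Igfbp3*, *Igfals* and *Ghr* levels was not tested. The hepatocyte markers *Ttr*, *Serpina1a* and *Fgb* had 0 counts in all 6 libraries, and 0 of 5 hepatocyte markers had enough counts to be tested. The summed macrophage markers (7 genes) lay between 14.4 and 16.1 CPM in AdLacZ and between 11.7 and 14.7 CPM in Ad*Lmo3*, and those of endothelial cells (5 genes) between 1.43 and 2.38 and between 0.925 and 1.81 CPM.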

How the data were processed

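Libraries of 3 AdLacZ and 3 AdLmo3 cultures were made with the NEBNext Ultra II RNA kit from total RNA and read on a NextSeq500 as 75-base single reads. The authors deposited 1 table per library of whole-number counts per gene symbol, not normalized. Per the submitters' processing notes, STAR (2.5.0b), the mm10 build and DESeq2 (1.6.3) were used; the counting program, its strand setting and the annotation are not given in the sources used here. Reads outside genes (7.15 to 8.94%) or ambiguous (0.476 to 0.543%) were left out of library sizes.

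Counts were fitted over all genes with edgeR (4.0.16, R 4.3.3) by its quasi-likelihood test after filterByExpr and TMM scaling, with Benjamini-Hochberg adjustment, a threshold of 0.05 and no replicate block. SE is the log2 fold change over the square root of F. Alternatives were other scalings and filters, DESeq2 (1.42.0), limma voom (3.58.1), a replicate block and leaving out each library. The scripts were tested on simulated data. Exon lengths and positions come from GENCODE M21 (GRCm38), flanks from RefSeq.

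The 10 genes and the wider lists were chosen with earlier results of these data known, and the lists support nothing by themselves. The text names all 10 genes, and of each wider list every called gene and at most the 2 uncalled genes with the highest mean CPM (*Irs2* is named beyond this rule); for *Igf1* and *Igfbp3*, the 3 other genes closest in pattern. The labels number the replicates but do not say what separates them, so p-values measure the spread between these samples, which may be technical. Replicates differed by more than sampling noise (chi-square per degree of freedom 24.1 to 64.0), and the range of the CPM floors follows from library depth and scaling only.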

Additional observations from a re-analysis of the deposited data

How the results depend on the processing

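Over 14 alternatives, *Igf1*, *Igf1r*, *Igf2r*, *Igfbp3*, *Igfbp4*, *Igfbp6* and *Igfbp7* kept their direction. *Igf2* went from 0.09 to -0.10 without AdLacZ replicate 3 and to -0.02 without Ad*Lmo3* replicate 2 (range -0.10 to 0.31 when a library was left out), and *Igfbp5* from -0.21 to 0.17 without Ad*Lmo3* replicate 3 (range -0.84 to 0.17), none past the threshold. The number of IGF genes called was 2 with every other scaling, filter and limma voom, 3 with DESeq2, and 0 to 1 when a library was left out, with 0 without AdLacZ replicate 2 or 3 and without Ad*Lmo3* replicate 2 or 3. The wider pathway gave 3 calls, 6 with no filter, 8 with DESeq2 and 1 to 4 when a library was left out. Over all genes, 547 were called, 1109 with DESeq2 and 77 to 501 when a library was left out. Scaling by library totals moved the median log2 fold change of all genes to -0.07 and gave 266 higher and 501 lower calls in place of 346 and 201, and *Ghr* then missed the threshold (adjusted p = 0.0518). *Htra1* missed it with limma voom (0.0535).

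The replicate numbers were not taken as pairs. Deviations from the group means correlated at 0.06, 0.24 and 0.26 between samples of the same number, and at -0.33 to 0.19 between samples of different numbers. Not every sample correlated best with its own number, and a shared effect of the replicate number is not excluded. A replicate block called 1 IGF gene (*Igf1*, adjusted p = 0.0166, whereas *Igfbp3* was at 0.0609 and *Htra1* at 0.0731) and 497 genes in all, 399 of them among the 547. With the block the SE fell from 0.213 to 0.0851 for *Igf2* and from 0.282 to 0.152 for *Igfbp6*, and neither was called. For *Igfbp3* the SE rose from 0.109 to 0.120. *Igfbp2* was too low to be tested. *Igfbp5* and *Igfbp6* had 191 counts or fewer in each library, and the part of depth in their missing calls was not tested. The cause of the changes above was not tested.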

Other observations

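The genes whose level over the 6 libraries was most like that of *Igf1* (Pearson r of log2(CPM + 1), out of 12757 tested genes other than the IGF genes) were *Kank2* (r = 0.996), *Tmem120a* (0.996) and *Acads* (0.995), the last a mitochondrial enzyme of short-chain fatty acid oxidation. Of these, *Tmem120a* passed the test itself, with a log2 fold change of 0.66 (edgeR adjusted p = 0.0202), whereas *Kank2* (0.25, adjusted p = 0.0841) and *Acads* (0.19, adjusted p = 0.146) did not. Those most like *Igfbp3* were *Dnm3os* (0.991), *5430425K12Rik* (0.991) and *H2-DMb1* (0.991), a chaperone subunit of antigen presentation. *H2-DMb1* passed the test with 0.71 (adjusted p = 0.0256), and *Dnm3os* (0.33, adjusted p = 0.0743) did not. These correlations describe 6 libraries that share the same 2 groups, and each is the highest of many.

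Among the IGF genes, *Igf1* and *Igfbp3* were correlated at r = 0.89 over the 6 libraries, *Igf1* and *Igfbp7* at 0.81, and *Igf1* and *Igf2r* at 0.81. *Igf2* and *Igfbp6*, of which neither passed the test, were correlated at 0.83, and both were lowest in replicate 3 of each group. Relative to its group mean on the log2 scale, *Igf2* stood at -0.46 in AdLacZ replicate 3 and at -0.31 in Ad*Lmo3* replicate 3, and *Igfbp6* at -0.33 and -0.45. Low levels in replicate 3 were not particular to these genes. The summed preadipocyte and fibroblast markers were lowest there too, in both groups. Over replicates 1 to 3 their sums were 22026, 22232 and 18420 (AdLacZ), then 25390, 23241 and 17406 CPM (Ad*Lmo3*). Not every marker of that list was lowest in replicate 3. What lowered these levels was not tested.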
